A study of Mus musculus with 18 samples.

Results

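Interferon-stimulated genes are the genes that a cell switches on when interferon binds its receptors. Type I interferons (interferon-α and -β) and type III interferons (interferon-λ) signal through JAK kinases to a complex that includes STAT2 and IRF9 and binds a DNA element called the ISRE, while type II interferon (interferon-γ) acts mainly through an element called GAS. The products include proteins that block viral RNA, sensors that detect it, and factors that feed the response forward or shut it off, and airway and alveolar epithelium are both known to mount this response. Here, 48 mouse genes of this class were followed through 18 cultures by bulk RNA sequencing. The genes were taken by name, from a list chosen with earlier results of these data known. All 48 were found among the 46603 genes of the tables, and all 48 passed the filter on low counts in every comparison that was tested. They were ordered by role into transcription factors (4 genes), the ISG15 system (4), the IFIT family (4), the OAS family (6), RNA and DNA sensors (5), other antiviral effectors (8), PARP proteins with Dtx3l (4), GBP and IRG GTPases (7) and other interferon-inducible genes (6).

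All cultures came from mice that carry a mutant human EGFR (EGFR TL) in the Col1a1 locus behind a floxed stop cassette and a CAG promoter, so that the transgene is off until Cre acts. Epithelial cells were sorted from tumor-free animals and infected in vitro with Ad-GFP, the control adenovirus, or with Ad-Cre, and then grown in Matrigel with lung mesenchymal endothelial support cells, whose RNA is part of each bulk library. The 10 pretransplant organoid cultures were club (NGFR negative) and basal (NGFR positive) cultures of the trachea, AT2 (Sca1 negative) cultures and mixed BASC (Sca1 positive) cultures of the distal lung, each once with Ad-GFP and once with Ad-Cre, together with 1 alveolar and 1 bronchiolar BASC culture with Ad-Cre that had been picked by hand. The 8 tumoroid cultures carried Ad-Cre throughout and were regrown from tumors: 3 AT2-derived, 3 mixed BASC-derived and 1 bronchiolar BASC-derived tumoroid after transplantation into nude mice, which lack most T cells, and 1 autochthonous tumoroid from a tumor induced in vivo. The support cells came from neonatal lungs and the autochthonous tumors from mice infected as adults, and the ages of the other animals are not given in the sources used here.

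Some features of the cultures bear on every comparison. The summed level of 8 alveolar type 2 markers was 44121 to 52571 CPM (counts scaled to library size) in the AT2 and alveolar BASC cultures and 712 to 1035 CPM in the tracheal cultures, so these labels were borne out. The club and basal labels were not separated by Ngfr itself, the gene used in the sort, which stood at 98.2 and 98.7 CPM in the club cultures and at 96.4 and 89.3 CPM in the basal cultures after growth. The organoids were sequenced on 1 platform (total expected counts of 27772660 to 97191624) and the tumoroids on another (15327265 to 23355938), so that platform and transplantation cannot be told apart. The deposited files also place the tracheal cultures on 1 lane and the alveolar cultures on others, so lane and tissue cannot be told apart. The AT2 tumoroids carry an NGFR-negative sort label beside their AT2 origin and were placed by origin. Where several tumoroids share a number in their labels, it is not stated whether they shared a mouse, and p-values measure the spread between cultures only. Ad-GFP and Ad-Cre cultures of a population share their sorted cells, yet outside the matched pairs they were tested as separate cultures.

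The ISRE itself can be read in the promoters of these genes. RefSeq promoter windows (GRCm38.p6) from 250 bases before to 50 bases after the transcription start were found for 36 of the 48 genes, in 41 windows. The core of the ISRE was searched as GAAANNGAAA on both strands, and 19 of the 36 genes (52.8%) held it in at least 1 window. Counted by window it was held by 20 of 41 (48.8%), against 3.44% of all 32851 promoter windows. The GAS core, TTCNNNGAA, was held by 8 of the 36 genes (22.2%). By window this was 8 of 41 (19.5%), against 8.30% of all windows, and 5 genes held both cores. The 130-base excerpts of the windows below are those of Isg15 and Ifit1, which are commonly used to read out the response, of Ifit3 and Oas3, and of Gbp2 and Irf1, which stood apart in the AT2 cultures described further on. Capitals mark the ISRE core, or in Irf1 the GAS core. Overlapping cores run together, so that 3 in Isg15 form 1 block of capitals. The Isg15 excerpt is chr4:156200819-156200948 on the minus strand, that of Ifit1 chr19:34640740-34640869 on the plus strand, that of Ifit3 chr19:34583328-34583457 on the plus strand, that of Oas3 chr5:120777660-120777789 on the minus strand, that of Gbp2 chr3:142620533-142620662 on the plus strand and that of Irf1 chr11:53769879-53770008 on the plus strand.
Isg15: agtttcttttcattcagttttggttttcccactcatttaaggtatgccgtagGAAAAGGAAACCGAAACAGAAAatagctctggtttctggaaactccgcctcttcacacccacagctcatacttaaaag
Ifit1: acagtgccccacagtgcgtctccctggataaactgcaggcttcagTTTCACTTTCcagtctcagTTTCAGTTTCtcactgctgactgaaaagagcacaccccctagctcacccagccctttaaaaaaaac
Ifit3: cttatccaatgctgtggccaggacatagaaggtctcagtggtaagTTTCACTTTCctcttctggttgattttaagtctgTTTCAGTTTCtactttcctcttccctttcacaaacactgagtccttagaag
Oas3: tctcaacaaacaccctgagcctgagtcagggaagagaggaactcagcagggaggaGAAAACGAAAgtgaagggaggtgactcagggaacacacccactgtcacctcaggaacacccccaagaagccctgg
Gbp2: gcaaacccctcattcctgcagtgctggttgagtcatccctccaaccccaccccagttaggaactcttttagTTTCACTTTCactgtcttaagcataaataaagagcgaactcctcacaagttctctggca
Irf1: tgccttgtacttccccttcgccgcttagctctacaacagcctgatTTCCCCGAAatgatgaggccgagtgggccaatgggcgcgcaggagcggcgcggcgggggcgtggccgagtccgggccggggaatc

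These matches describe letters only, and whether a factor was bound was not measured. The median tracheal-against-alveolar difference (log2 fold change, below) was 1.22 for the 19 genes with the ISRE core, 1.15 for the 17 genes whose windows lacked it and 2.16 for the 12 genes with no window, so a part of the genes with large differences could not be classed.

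Within a culture, the genes differed widely in level, which was compared per length in TPM. In the tracheal cultures the highest means were those of Ifi27l2a (685 TPM), Lgals3bp (459 TPM), Bst2 (365 TPM), Isg15 (337 TPM) and Ifi27 (277 TPM). Lgals3bp, a secreted galectin-binding glycoprotein, was the highest of the 48 in the alveolar organoids (270 TPM) and in the 6 AT2- and mixed BASC-derived tumoroids (352 TPM). Across cultures the genes largely moved together. Over all 18 cultures, the median correlation of a gene with the mean of the other 47 (Pearson, log2 CPM) was 0.92, and 30 genes lay above 0.9. Oasl2 followed the others most closely (r = 0.99), and Ifi27 (0.43), Iigp1 (0.56), Lgals3bp (0.62) and Ifit2 (0.63) least. In the 10 organoid cultures the value of Iigp1, an immunity-related GTPase, was -0.33. These correlations are descriptions over cultures that share tissues and platforms.

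A score was taken for each culture as the mean log2 CPM of the 48 genes, which is a level on a log scale and not a difference. It was 6.44, 6.39, 6.48 and 6.38 in the club Ad-GFP, club Ad-Cre, basal Ad-GFP and basal Ad-Cre cultures and 6.09 and 6.05 in the mixed BASC Ad-GFP and Ad-Cre cultures. The AT2 cultures had 3.40 with Ad-GFP and 5.20 with Ad-Cre, the alveolar BASC culture 4.999 and the bronchiolar BASC culture 4.41. Among the tumoroids the scores were 2.32, 3.00 and 5.52 for AT2 tumoroids 1 to 3, 4.77, 4.24 and 5.39 for mixed BASC tumoroids 1 to 3, 4.23 for the bronchiolar and 2.59 for the autochthonous tumoroid. The 4 tracheal cultures had the highest scores. Their SD was 0.0449 (n = 4) and that of the 2 mixed BASC organoid cultures 0.0328, against 0.98 in the 3 alveolar organoid cultures and 1.301 in the 6 AT2- and mixed BASC-derived tumoroids. Gene by gene, the median SD of the 48 was 0.11 in the tracheal, 0.84 in the alveolar organoid and 1.35 in the 6 tumoroid cultures, where that of 14692 genes with at least 1 CPM on average was 0.12, 0.15 and 0.43.

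**Figure D1:**
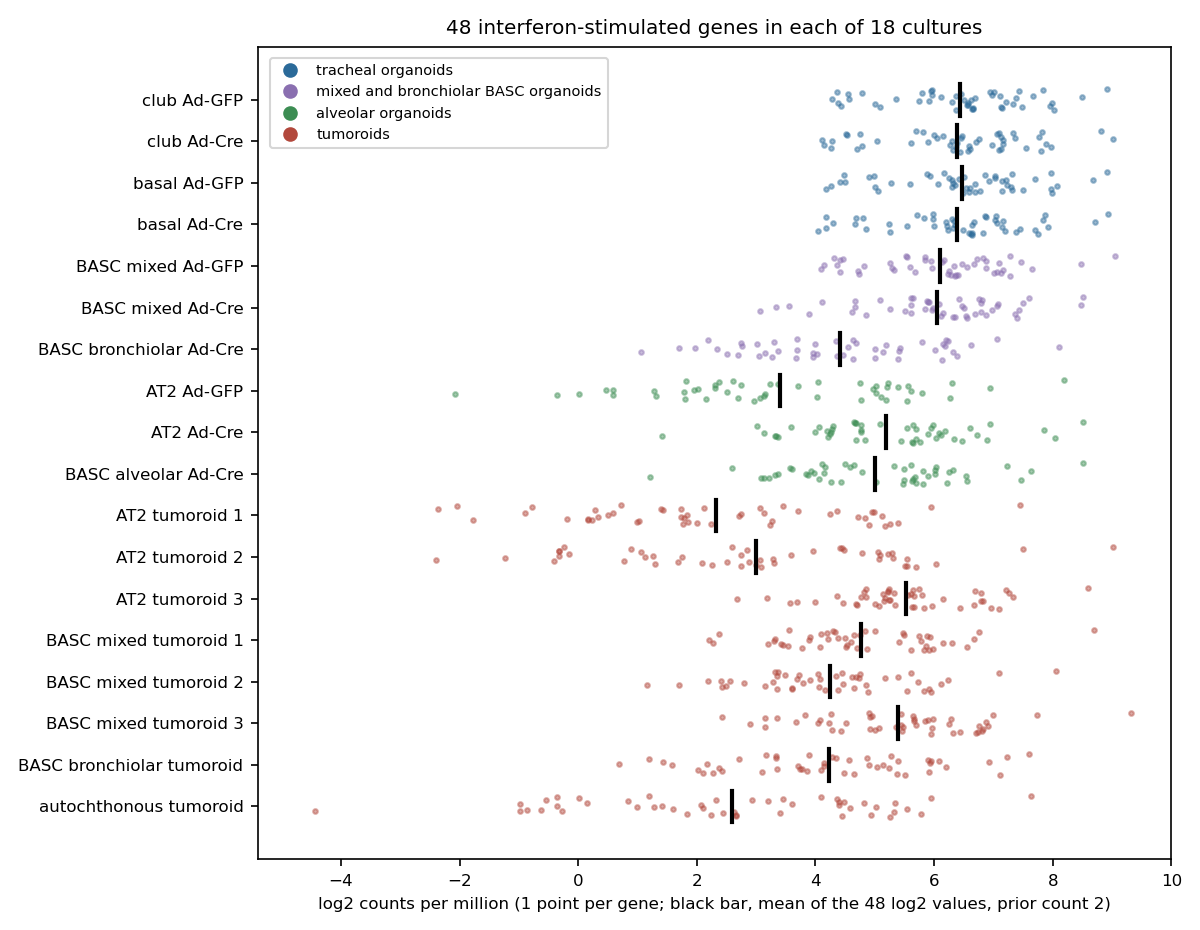
Each point is 1 of the 48 genes in 1 of the 18 cultures, on a log2 axis of CPM, and the black bar is the mean of the 48 log2 values. The bars of the 4 tracheal cultures lie together between 6.38 and 6.48, and those of the tumoroids are spread from 2.32 to 5.52.

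Tracheal and alveolar pretransplant organoids were compared first, as the tissue contrast of the design (4 club and basal cultures against the 2 AT2 cultures and the alveolar BASC culture). The Ad-GFP and Ad-Cre cultures of a population came from the same sorted cells and entered without pairing. The p-values therefore do not measure the spread between sorts. Of the 48 genes, 37 were higher in the tracheal organoids, 2 were lower and 9 did not pass the test (edgeR quasi-likelihood test, Benjamini-Hochberg adjusted p below 0.05 over 18135 genes). Of all genes tested, 34.0% were called higher and 32.8% lower. The median log2 fold change of the 48 was 1.58, beside 0.04 over all genes tested. Fibroblast markers stood the other way, with a summed level of 1473 to 1589 CPM in the tracheal and 4544 to 8082 CPM in the alveolar cultures, and their part in the result was not tested. In bulk samples, fewer cells of a type and less RNA per cell cannot be told apart.

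The OAS family differed most. It holds enzymes that make the oligoadenylates that activate RNase L, and their OAS-like relatives, and all 6 genes were higher in the tracheal cultures. Oas2 stood at 162, 127, 157 and 176 CPM in the club Ad-GFP, club Ad-Cre, basal Ad-GFP and basal Ad-Cre cultures, and at 0.783, 10.1 and 8.73 CPM in the AT2 Ad-GFP, AT2 Ad-Cre and alveolar BASC cultures. The groups did not overlap, and the lowest tracheal culture was far above the highest alveolar one. The difference amounted to 4.51 ± 0.84 (log2 fold change ± SE, with an adjusted p of 0.0035 in edgeR). Oas3 (3.61 ± 0.74, adjusted p = 0.0053), Oasl1 (3.38 ± 0.70, adjusted p = 0.0052) and Oas1a (2.85 ± 0.66, adjusted p = 0.0092) followed, and Oasl2 (2.48) and Oas1g (2.04) had the smallest differences of the family. Oas1a and Oas1g are close copies, so the division of reads between them is uncertain.

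In the ISG15 system, a ubiquitin-like modifier with its ligases and its protease, 3 of 4 genes were higher. Isg15, the modifier, lies on chr4:156199424-156200818 and stood at 142, 137, 141 and 114 CPM in the club Ad-GFP, club Ad-Cre, basal Ad-GFP and basal Ad-Cre cultures, against 4.44, 43.4 and 32.4 CPM in the AT2 Ad-GFP, AT2 Ad-Cre and alveolar BASC cultures. The AT2 Ad-GFP culture was the lowest by far, and the groups did not overlap. This gave a log2 fold change of 2.26 ± 0.72 (adjusted p = 0.031 in edgeR). Usp18, the protease that removes ISG15 and restrains the receptor, was higher by 2.44 ± 0.67, and Trim25, an E3 ligase, by 0.58 ± 0.14. Herc6, the main mouse ISG15 ligase, had a log2 fold change of 0.83 with an adjusted p of 0.082.

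The IFIT family, whose proteins bind foreign RNA, was the exception. None of its 4 genes was called higher. Ifit1 (chr19:34640871-34650009) stood at 178, 188, 181 and 146 CPM in the same order of tracheal cultures and at 6.46, 80.7 and 49.5 CPM in the alveolar cultures. The groups did not overlap, but the spread within the alveolar cultures was wide, and the log2 fold change of 1.87 ± 0.76 did not pass (adjusted p = 0.070 by edgeR). Without the AT2 Ad-GFP culture it was 1.35 and passed (adjusted p = 0.0008). Ifit3 ran from 208 to 252 CPM in the tracheal and from 34.3 to 263 CPM in the alveolar cultures, which overlapped. Ifit2 was lower in the tracheal cultures, at 16.4 to 21.6 CPM against 16.2, 51.9 and 44.9 CPM in the AT2 Ad-GFP, AT2 Ad-Cre and alveolar BASC cultures, with a log2 fold change of -1.06 ± 0.37 (adjusted p = 0.039). This difference rested on the Ad-Cre cultures, since the AT2 Ad-GFP value was below the tracheal range. Ifit3 and Ifit3b are near-identical copies, and their individual values are uncertain.

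Among the transcription factors, Irf7, which amplifies the response, was higher in the tracheal cultures (216 to 259 CPM against 7.77 to 49.2 CPM, log2 fold change 2.76). Irf9 (1.09) and Irf1 (0.75) were higher too, and Stat2 was not called (0.43, adjusted p = 0.22). All 5 RNA and DNA sensors were higher. Zbp1, a sensor of Z-form nucleic acids, stood at 59.3 to 67.3 CPM against 3.45 to 9.97 CPM, with a log2 fold change of 3.03 ± 0.36 (adjusted p = 0.0003). Dhx58 followed with 1.85, whereas Ddx58 (0.72), Eif2ak2 (0.69) and Ifih1 (0.59), which encode RIG-I, PKR and MDA5, differed less. The fitted fold was 1.51 to 1.65 in these 3 genes and 8.15 in Zbp1.

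Other effectors behaved unevenly. Mx1 (2.73), Rtp4 (2.41), Trim30a (2.39), Mx2 (1.96), Bst2 (1.22) and Samd9l (1.15) were higher in the tracheal cultures, while Rsad2 (0.48, adjusted p = 0.63) and Cmpk2 (0.58, adjusted p = 0.33), neighbouring genes that encode viperin and a nucleotide kinase, were not called. The 4 genes of the PARP group, including Parp9 and its partner Dtx3l, were all higher, with log2 fold changes from 0.53 to 1.60. Of the GTPases, which act on pathogen-containing vacuoles, 5 were higher, led by Gbp3 (2.82) and Gbp2 (2.39 ± 0.09), and Igtp was not called. Gbp2 stood at 62.8 to 76.1 CPM in the tracheal and at 13.1, 12.1 and 12.2 CPM in the AT2 Ad-GFP, AT2 Ad-Cre and alveolar BASC cultures, so that its alveolar values hardly varied where those of most of the 48 genes did. Iigp1 went the other way, at 18.1 to 22.9 CPM against 26.8, 49.8 and 40.1 CPM (-0.95 ± 0.19, adjusted p = 0.0027). In the remaining group, Ifi44 stood at 225 to 250 CPM against 3.52 to 25.6 CPM (3.86 ± 0.67, adjusted p = 0.0026), and Ifi27 stood at 116 to 136 CPM against 78.7 to 150 CPM and was not called (adjusted p = 0.997).

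**Figure D2:**
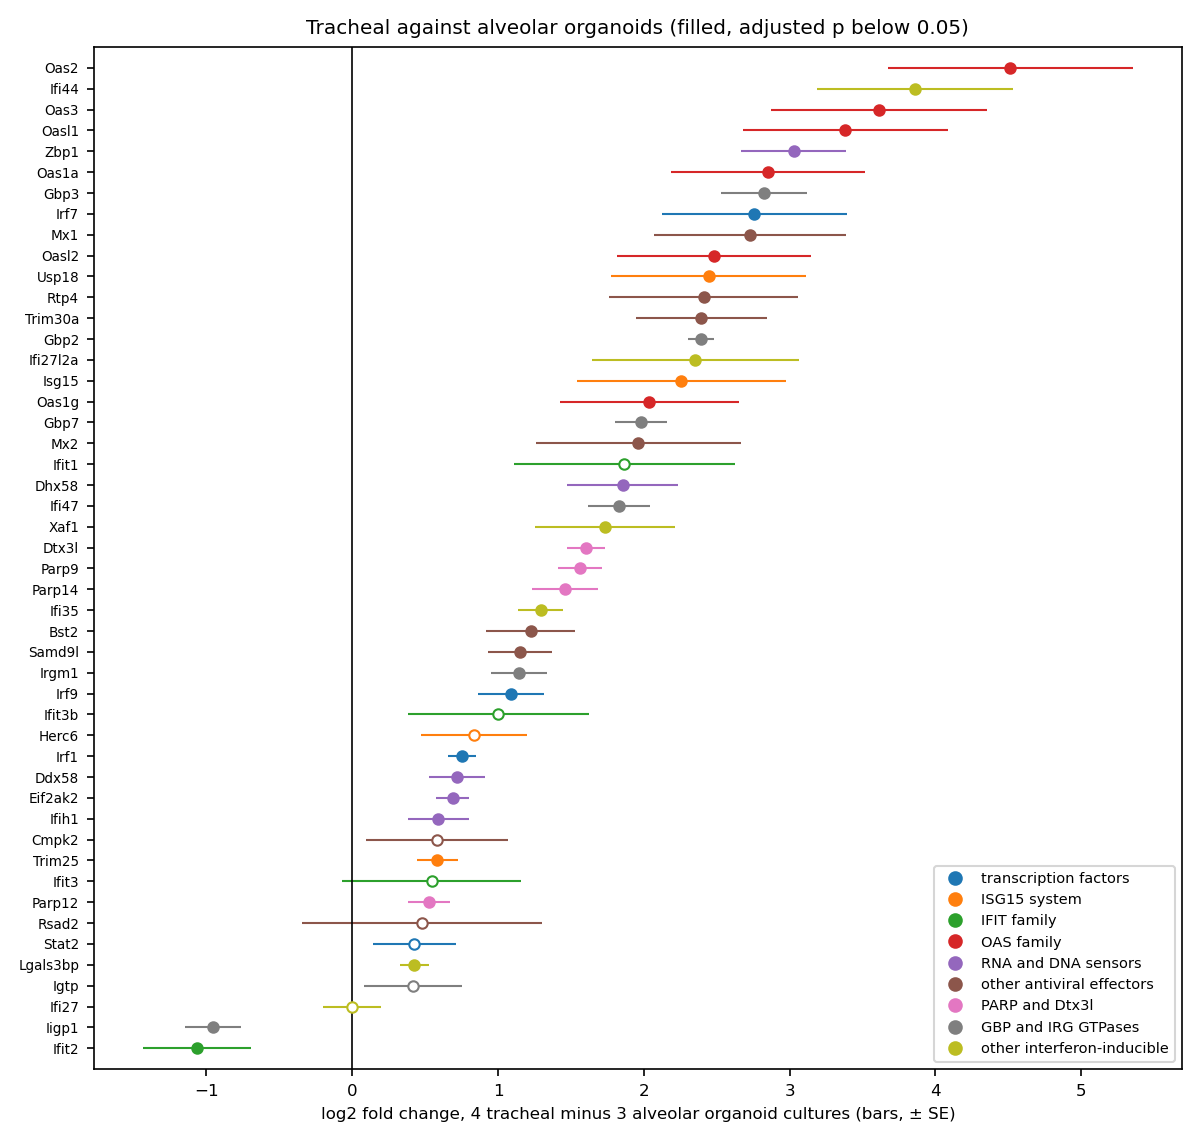
Points give the log2 fold change of each of the 48 genes between 4 tracheal and 3 alveolar organoid cultures, bars give its SE, colours the role, and filled points an adjusted p below 0.05. Oas2, at 4.51, leads the 37 genes called higher, and Ifit2 and Iigp1 are the 2 called lower.

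The call depended on which distal cultures were taken. When the mixed and bronchiolar BASC cultures were added to the distal side (all 6 distal organoids), 0 of the 48 genes were called in either direction. Few genes of any kind were called in that fit, 45 of 18103. The median log2 fold change of the 48 was 0.90, and 25 of them had an unadjusted p below 0.05 by edgeR, as did 29.42% of all genes. With Ad-Cre cultures only, 36 of the 48 genes were higher and 2 lower, where 8713 of 17997 genes were called in either direction. Summed basal markers were 2489 to 3260 CPM in the mixed BASC cultures, 4019 to 4993 CPM in the tracheal cultures and 6.26 to 189 CPM in the alveolar cultures, and the scores of the mixed cultures (6.09 and 6.05) also lay nearer to those of the trachea. The bronchiolar BASC culture did not follow this, with summed basal markers of 1632 CPM and a score of 4.41, below the AT2 Ad-Cre and alveolar BASC cultures.

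The upstream pathway was followed in lists of genes outside the 48. Ligand transcripts were nearly absent. Of 21 interferon ligand genes, 6 had 0 counts in every culture, Ifng among them, and 9 reached at most 3 counts. The highest count of any ligand was 56, for Ifnab in AT2 tumoroid 1. Ifnab had 39 counts in mixed BASC tumoroid 1, and Ifnz had 23 in mixed BASC tumoroid 2. The relation of ligand counts to the scores was not tested. Ifnb1 reached 5 counts, in the AT2 Ad-Cre culture, which is 0.0535 CPM, and had 0 in the AT2 Ad-GFP culture. All 6 receptor genes were expressed. Beside the counts that follow, 34.0% of all 18135 genes tested were called higher in the tracheal cultures and 32.8% lower. In the tracheal cultures Ifngr1 (log2 fold change 1.13, adjusted p = 6.65e-06), Ifnlr1 (0.65, adjusted p = 0.0028) and Ifngr2 (0.48, adjusted p = 0.0062) were higher, and Il10rb (-0.69) and Ifnar2 (-0.27) were lower, while Ifnar1 was not called. Of 11 sensing and induction genes tested, 6 were higher and 1 lower, and Irf5 (2.76), Tmem173 (2.34), which encodes STING, and Ikbke (1.69) differed most. Of 12 negative regulators, 7 were higher and 3 lower. A further 57 known interferon targets were tested, of which 44 were higher and 2 lower, Gbp6 (-1.88) and Gbp10 (-0.65). Their median log2 fold change was 1.12.

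Markers of immune cells were low but also differed. The summed level of 12 immune markers was 70.5 to 76.9 CPM in the tracheal and 19.0 to 19.8 CPM in the alveolar organoids. Most of the tracheal sum was Cd68, a lysosomal protein gene (52.0 to 65.3 CPM), while Ptprc, the pan-leukocyte marker, was at most 0.0845 CPM there and 0.681 to 1.19 CPM in the alveolar cultures. Itgam, a myeloid integrin gene, stood at 11.4, 16.2, 6.48 and 9.34 CPM in the club Ad-GFP, club Ad-Cre, basal Ad-GFP and basal Ad-Cre cultures and at 0.235 to 0.868 CPM in the alveolar cultures, the same direction as most of the 48 genes. Ncr1 and Siglech, which mark natural killer cells and plasmacytoid dendritic cells, did not exceed 0.0441 CPM in any of the 18 cultures. The part of these markers in the result was not tested.

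Club- and basal-derived tracheal organoids did not differ in these genes beyond the spread. With 2 cultures on each side, 0 of the 48 were called higher and 0 lower by edgeR, where 0.157% and 0.0754% of 17234 genes were called. DESeq2 also called 0, and 2 genes, Gbp7 (-0.30 ± 0.10, adjusted p = 0.41) and Trim25 (-0.21, adjusted p = 0.58), had an unadjusted p below 0.05. Isg15 had a log2 fold change of 0.14 ± 0.11 (adjusted p = 0.85) and Ifit1 one of 0.18 ± 0.11 (adjusted p = 0.79). The fold changes of the 48 ran from -0.30 to 0.25, with a median of 0.02. Among the further targets, Ccl5 was lower in the club cultures (-0.92, adjusted p = 0.042).

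Ad-Cre was compared with Ad-GFP in 4 matched pairs, each with 1 Ad-GFP and 1 Ad-Cre culture of the same sorted population. Both cultures of a pair were infected with adenovirus and no culture was uninfected, so a response to infection itself was not measured. The AT2 pair stood apart. Of the 48 genes, 30 were higher with Ad-Cre by 2-fold or more and 0 were lower, where 2.2% of 14338 genes were higher and 2.16% lower by that rule. Being 1 culture against 1, the pair has no replicate check and no test. The median difference of the 48 was 1.58 on the log2 scale, and 47 genes were higher. Of the 316 genes of the whole table that were higher by 2-fold or more, 30 were among the 48 and 12 were further interferon targets, and of the 50 largest differences 18 and 4 were.

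Rsad2, the viperin gene, went from 1.38 CPM with Ad-GFP to 27.2 CPM with Ad-Cre, the largest difference (4.25 on the log2 scale). Ifit1 went from 6.46 to 80.7 CPM (3.63) and Oas2 from 0.783 to 10.1 CPM (3.60). Mx2 went from 1.51 to 15.9 CPM (3.36), and Isg15 from 4.44 to 43.4 CPM (3.27). These are effectors of several families, and in each the Ad-GFP culture was the low one. By role, the median difference was 3.10 in the OAS family, 2.92 in the IFIT family, 2.48 in the other effectors and 2.32 in the ISG15 system, against 0.91 in the sensors, 0.89 in the GTPases and 0.54 in the PARP group. Gbp2 was the only one of the 48 that was lower, at 13.1 and 12.1 CPM, and Irf1 stood at 46.56 and 50.03 CPM, so both were almost level within the pair. Gbp2 holds an ISRE core and Irf1 a GAS core in the promoters printed above. Over the 19 genes with the ISRE core the difference ran from -0.11 to 4.25, and genes with the GAS core were not summarized. The median difference within the pair was 1.53 for the 19 genes with the ISRE core, 0.99 for the 17 whose windows lacked it and 2.22 for the 12 with no window.

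Against the tracheal mean, the AT2 Ad-GFP culture was lower by a median of 2.45 on the log2 scale and the AT2 Ad-Cre culture by 1.20. The Ad-Cre culture exceeded the tracheal mean in 5 genes (Ifit2, Ifit3, Rsad2, Iigp1 and Ifi27), and the Ad-GFP culture did so in Iigp1 only. The alveolar BASC culture, also with Ad-Cre, resembled the AT2 Ad-Cre culture, with Isg15 at 32.4 and Ifit1 at 49.5 CPM. The 6 receptors had a median difference of 0.01 within the AT2 pair, with none past 2-fold. Of 54 further targets at 1 CPM or more, 12 were higher and 1 was lower by 2-fold, Ifitm1 (8.83 and 3.30 CPM). Markers of cell types also differed within this pair. Of 6 club cell markers 5 reached 1 CPM, and 4 of them were higher with Ad-Cre by 2-fold or more, among them the secretoglobin gene Scgb1a1 (12.8 and 301 CPM). The 8 alveolar type 2 markers had a median difference of -0.52, from Sftpa1 (3263 and 1376 CPM) to Sftpc, which was level (27563 and 26674 CPM). The 11 fibroblast markers had a median difference of -0.11, with Dcn at 705 and 198 CPM, Postn at 601 and 1048 CPM and Col6a1 at 771 and 796 CPM, and their sums were 8082 and 7621 CPM. These genes were chosen after their values were seen, and their part in the result was not tested. The pair was sequenced on 2 lanes, and lane and virus cannot be told apart within it.

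In the other pairs the genes hardly differed. In the club pair 0 of the 48 were higher and 0 lower by 2-fold (0.734% and 1.24% of all genes). The basal pair likewise had 0 and 0 (0.513% and 0.388%). In the mixed BASC pair 0 were higher and 1 lower (5.61% and 8.62%), Oasl1, at 17.1 and 8.40 CPM. The median differences were -0.05, -0.09 and -0.02 on the log2 scale. Isg15 stood at 142 and 137 CPM in the club pair, at 141 and 114 CPM in the basal pair and at 82.3 and 93.2 CPM in the mixed BASC pair. Ifit1 stood at 178 and 188, 181 and 146, and 130 and 103 CPM in the same pairs. Neither gene moved in 1 direction over these pairs. In the club pair Samd9l (361 and 517 CPM) had the largest difference upward and Herc6 (34.2 and 25.9 CPM) downward. In the basal pair these were Rsad2 (21.4 and 25.4 CPM) and Isg15. In the mixed BASC pair Iigp1 (19.8 and 34.1 CPM) differed most upward.

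Over all 4 pairs, with the population as a block, 0 of the 48 genes were called higher and 0 lower (0% and 0% of 19178 genes by edgeR). None of the 48 had an unadjusted p below 0.05, where 387 of all genes did, and DESeq2 called 5 genes, none of them among the 48. The log2 fold change of Isg15 was 0.63 ± 0.64 (adjusted p = 0.996) and that of Ifit1 0.57 ± 0.74 (adjusted p = 0.996). These values rested on the AT2 pair, since without it they were -0.0615 and -0.19, and the median of the 48 went from 0.33 to -0.0594. The difference of the Ad-Cre effect between the 2 distal and the 2 tracheal pairs was tested as an interaction. By edgeR 0 of the 48 were called in either direction (0% and 0% of all genes). DESeq2 called 145 of 19178 genes, none of them among the 48. In edgeR the median difference was 0.92, and Iigp1 (0.91, adjusted p = 0.71) and Bst2 (0.94, adjusted p = 0.97) had an unadjusted p below 0.05, as did 4.646% of all genes.

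**Figure D3:**
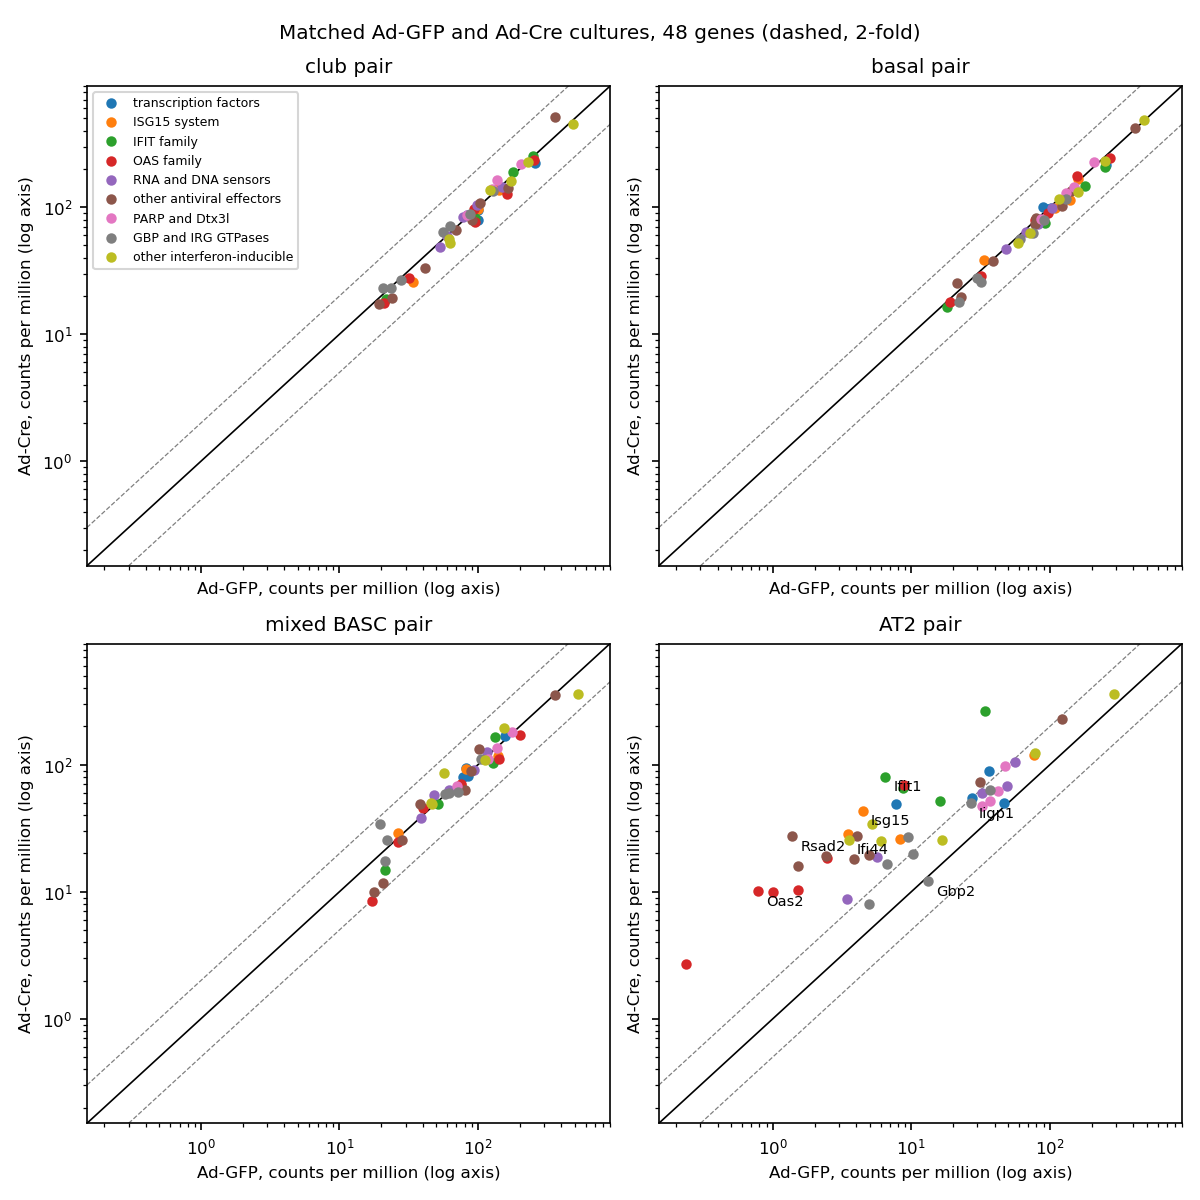
Each panel plots the 48 genes of 1 matched pair, with the Ad-GFP culture on the x axis and the Ad-Cre culture on the y axis, both in CPM on log axes. The solid line marks equality and the dashed lines 2-fold, and only the AT2 panel has points well above the upper dashed line (30 genes at 2-fold or more).

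Among tumoroids, the 48 genes spread more than most. Over the 6 AT2- and mixed BASC-derived tumoroids the median SD of the 48 genes was 1.35 on the log2 scale, beside 0.41 over 14076 genes with at least 1 CPM, and 10.5% of those genes had an SD at or above that median. All 48 genes exceeded the median of all genes. Ifi44 (SD 2.93), Oas2 (2.72), Gbp3 (2.69) and Ifi27l2a (2.67) varied most, and Parp12 (0.43), Ifih1 (0.45) and Eif2ak2 (0.45) least.

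Isg15 stood at 4.72, 6.66 and 49.2 CPM in AT2 tumoroids 1 to 3 and at 29.4, 20.8 and 86.5 CPM in mixed BASC tumoroids 1 to 3. Ifit1 stood at 1.996, 2.46 and 40.4 CPM and at 22.7, 12.2 and 32.1 CPM in the same order. Oas2 stood at 0.292, 0.756 and 22.1 CPM and at 10.7, 5.61 and 41 CPM. In each gene AT2 tumoroids 1 and 2 were the 2 lowest and AT2 tumoroid 3 or mixed BASC tumoroid 3 the highest. Over the 48 genes, mixed BASC tumoroid 3 held the highest value in 28, AT2 tumoroid 3 in 19 and mixed BASC tumoroid 1 in 1, and AT2 tumoroid 1 held the lowest in 37. These extremes were not counted over all genes, so whether they are particular to the 48 was not tested. The origin did not separate the tumoroids. In the comparison of 3 AT2-derived with 3 mixed BASC-derived tumoroids 0 of the 48 genes were called higher and 0 lower (0% and 0% of 15470 genes by edgeR), and DESeq2 called 7 genes, none of them among the 48. Mx1, at 6.52, 3.36 and 6.40 CPM against 14.8, 9.74 and 22.7 CPM, was the 1 gene of the 48 with an unadjusted p below 0.05 (-1.53 ± 0.45, adjusted p = 1.00 by edgeR). Of all 15470 genes, 135 (0.873%) had such a p. Isg15 had a log2 fold change of -1.14 ± 1.03 and Ifit1 one of -0.54 ± 1.18. Without AT2 tumoroid 3 the median of the 48 went from -0.41 to -2.04, all 48 were lower in the AT2 tumoroids and 34 had an unadjusted p below 0.05 (5.998% of all genes), yet 0 were called. AT2 tumoroid 3 had the highest summed fibroblast markers of the 6 tumoroids (8692 CPM, the others 419 to 4151 CPM) and the lowest summed epithelial markers (965 CPM, the others 3393 to 5151 CPM), and their part in this spread was not tested.

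The 2 tumoroids with the highest scores were set side by side, with no test. Of the 48 genes, 9 were higher in AT2 tumoroid 3 and 5 in mixed BASC tumoroid 3 by 2-fold or more. Over the 48 the median difference was -0.17 on the log2 scale. Counts past 2-fold were not made over all genes for this pair, so no share stands beside them. The median difference of AT2 tumoroid 3 from mixed BASC tumoroid 3 was 2.86 on the log2 scale in the 7 GTPases and -0.92 in the OAS family. Of the GTPases, 4 differed by 2-fold or more (Gbp2, Gbp3, Gbp7 and Iigp1), and Igtp (0.27), Ifi47 (-0.10) and Irgm1 (-0.42) did not. Gbp2 stood at 154 and 8.90 CPM in AT2 tumoroid 3 and mixed BASC tumoroid 3, Gbp3 at 111 and 10.3 CPM and Iigp1 at 103 and 14.2 CPM. Irf1 (137 and 61.4 CPM) and Zbp1 (38.3 and 7.42 CPM) lay the same way. Oas3 (15.9 and 44.6 CPM), Mx1 (6.40 and 22.7 CPM) and Ifi27l2a (50.1 and 127 CPM) lay the other way. Beyond the 48, Ccl5 stood at 171 and 2.71 CPM, Cxcl10 at 62.4 and 5.64 CPM and Gbp5 at 27.5 and 1.02 CPM. The 2 tumoroids also differed in the summed fibroblast markers (8692 and 811 CPM) and the summed epithelial markers (965 and 5113 CPM), and the part of these in the result was not tested. Ifng had 0 counts in both. This pair was singled out after its values were seen.

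**Figure D4:**
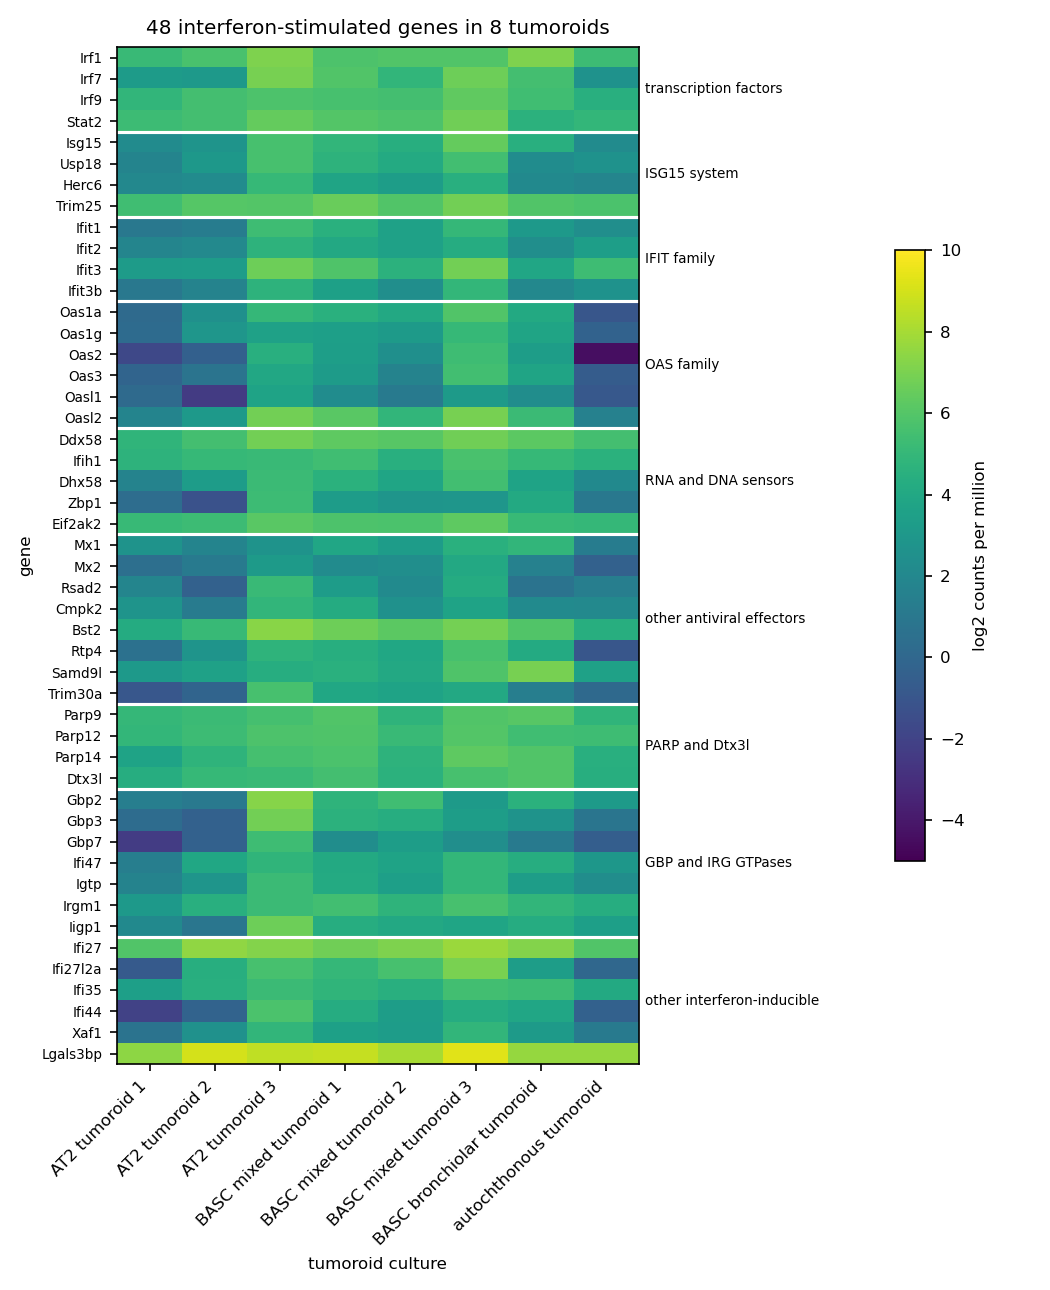
Colour gives log2 CPM of the 48 genes (rows, grouped by role) in the 8 tumoroids (columns). AT2 tumoroid 3 and mixed BASC tumoroid 3 are bright over most roles, and the Gbp2, Gbp3 and Gbp7 rows are brightest in AT2 tumoroid 3.

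Against the 3 alveolar organoid cultures, the direction in the 6 tumoroids depended on which cultures were taken. None of the 48 genes was called higher and 1 was called lower, where 12.6% and 8.87% of 16260 genes were called, and the median log2 fold change was 0.14. The gene was Samd9l, which restrains translation in infected cells. It stood at 8.81, 12.0 and 20.5 CPM in AT2 tumoroids 1 to 3, at 22.6, 16.8 and 57.5 CPM in mixed BASC tumoroids 1 to 3 and at 123, 230 and 199 CPM in the AT2 Ad-GFP, AT2 Ad-Cre and alveolar BASC organoids. The groups did not overlap, with a log2 fold change of -2.95 ± 0.52 (adjusted p = 0.0051 in edgeR). In AT2 tumoroids against AT2 organoids alone the value was -3.64 and did not pass (adjusted p = 0.090 in edgeR), where 0 of all 16000 genes were called. Isg15 (0.34 ± 0.95, adjusted p = 0.83) and Ifit1 (-1.25 ± 0.96, adjusted p = 0.40) did not pass. The direction of Isg15 turned with 1 culture, being -0.17 without the AT2 Ad-GFP organoid and -0.24 without mixed BASC tumoroid 3. The median of the 48 turned as well. Without the AT2 Ad-GFP organoid, the only Ad-GFP culture in this comparison, it was -0.25, with 18 of the 48 genes higher in the tumoroids. The mean score was 4.21 in the 6 tumoroids, 4.53 in the 3 alveolar organoids and 5.10 in those with Ad-Cre. Among the receptors, Ifngr1 (-1.22), Il10rb (-0.71) and Ifngr2 (-0.65) were lower in the tumoroids.

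The 2 remaining tumoroids were set against the range of the 6, with no test. In the bronchiolar tumoroid 3 genes were outside the range and higher by 2-fold or more and 1 was lower (9.82% and 8.6% of 15737 genes). Samd9l stood at 121 CPM against a highest value of 57.5 CPM in the 6, Mx1 at 29.9 against 22.7 CPM, and Irf1 at 139 against 137 CPM. Stat2 was lower, at 25.2 CPM against a lowest value of 38.4 CPM. Isg15 (22.4 CPM) and Ifit1 (8.59 CPM) lay within the range. In the autochthonous tumoroid, 0 were higher and 12 lower by that rule (5.93% and 4.49% of 15575 genes). Oas2 had 1 count there (0.0460 CPM), against a lowest value of 0.292 CPM in the 6, and Oas1a, Rtp4 and Oasl2 stood at 0.506, 0.506 and 3.03 CPM against lowest values of 1.12, 1.51 and 3.46 CPM. Its Isg15 (4.73 CPM) and Ifit1 (5.42 CPM) lay within the range and below those of the 3 mixed BASC tumoroids. Of the 12 genes, 5 belonged to the OAS family.

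**Figure D5:**
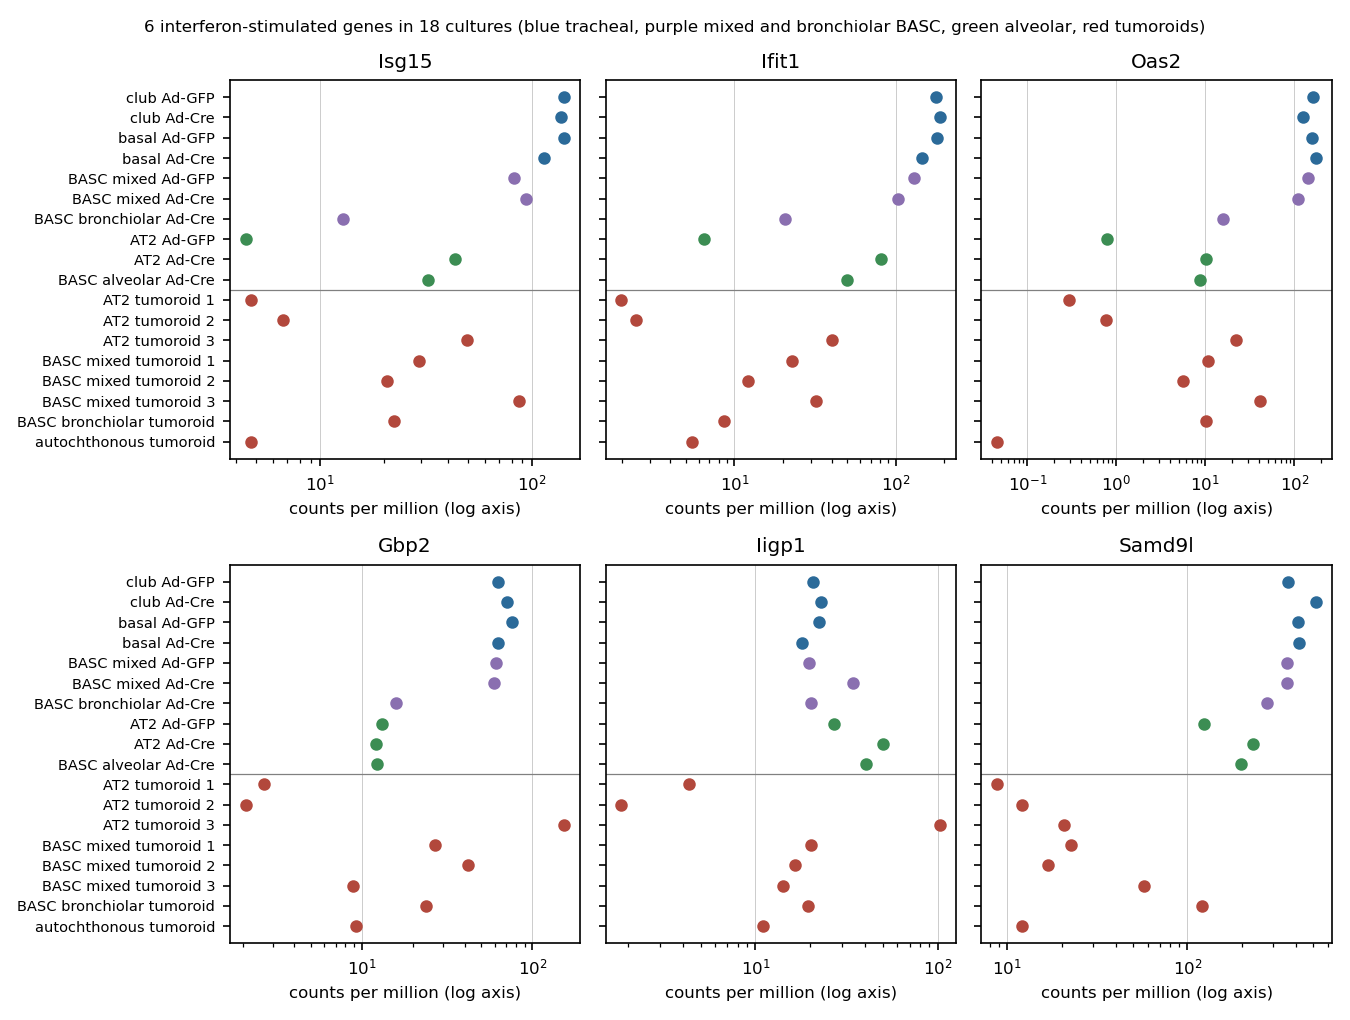
CPM on a log axis are shown for Isg15, Ifit1, Oas2, Gbp2, Iigp1 and Samd9l in the 18 cultures, organoids above the grey line and tumoroids below it. Isg15, Ifit1 and Oas2 drop from the tracheal to the AT2 Ad-GFP culture, Gbp2 stays at 12.1 to 13.1 CPM in all 3 alveolar organoids, and Samd9l is low in the 6 alveolar tumoroids (8.81 to 57.5 CPM).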

How the data were processed

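RNA-seq tables of 18 mouse cultures were analysed. The authors trimmed reads with Trimmomatic 0.39, aligned them with STAR 2.6.1d to GRCm38 and deposited, for each gene and sample, the expected count estimated by RSEM 1.3.2 and the TPM, without normalization between samples. RSEM divides shared reads among near-identical copies. Of 46603 genes, 46091 were matched to GENCODE vM21 symbols and 512 were not. The 48 genes, the roles, the other lists and the comparisons were chosen with earlier results of these data known.

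The expected counts, rounded to integers, were fitted with R 4.3.3 and edgeR 4.0.16 (filterByExpr, TMM factors, quasi-likelihood test, Benjamini-Hochberg adjustment over all genes, threshold 0.05), and DESeq2 1.42.0 was an alternative. The SE is the log2 fold change divided by the root of its F statistic. CPM use TMM factors over all 18 samples, and log2 CPM a prior count of 2. The script was tested on simulated data. In comparisons of single cultures a gene counted with at least 1 CPM in either culture (any of the 7 for single tumoroids) and a 2-fold difference. Promoters came from RefSeq windows of GRCm38.p6, read with Python 3.11.15. Named genes were Isg15, Ifit1 and up to 6 of the largest called differences in each direction (4 without a test), besides values for the rest of the 48, and at most 3 called genes of each other list, exceptions being named as chosen after their values were seen. Alternatives were other normalizations, filters, tests and covariates, and leaving out each culture. Reads of the EGFR transgene were not analysed. Total expected counts were 27772660 to 97191624 in organoids and 15327265 to 23355938 in tumoroids. A count of 0 allows up to 3 counts, for counting error only. Some genes of the lists are not reported here.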

Additional observations from a re-analysis of the deposited data

Results flagged for a closer look

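In groups of 4 to 10 cultures, the highest or lowest value was compared with the gap to its neighbour by Dixon's criterion, for the score and each of the 48 genes in the 4 tracheal organoids and the 6 alveolar tumoroids. Of 98 such groups 6 held a value set apart, and chance gives about 1 in 20. In the tracheal organoids these were Isg15 (6.83 on the log2 CPM scale) and Ifit3 (7.70), lowest in the basal Ad-Cre culture, Oas3 (6.57), highest in the club Ad-GFP culture, and Lgals3bp (8.82), lowest in the club Ad-Cre culture. In the tumoroids they were Ifi47 (1.42) and Ifi27l2a (-0.66), lowest in AT2 tumoroid 1. The edgeR test of the difference of the Ad-Cre effect between distal and tracheal pairs called no gene. DESeq2 called 145 of 19178 genes there, with 0 of the 48 among them.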

How the results depend on the processing

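In tracheal against alveolar organoids the count of genes called higher lay between 31 and 40 and that called lower was 1 or 2 over the normalizations, filters, DESeq2, the virus covariate and the left-out cultures (32 to 40 higher and 1 to 2 lower when 1 culture was left out). Without a filter 31 were higher and 1 lower, and with the virus as a covariate 1 and with AT2 cultures only 1 was lower. With all 6 distal organoids 0 were higher and 0 lower, where 45 of all 18103 genes were called. The cause of these changes was not tested. Samd9l was lost in AT2 tumoroids against AT2 organoids, where 0 of all 16000 genes were called in either direction. The log2 fold change of Isg15 in the 4 pairs ran from -0.0615 (without the AT2 pair) to 1.01 and that of Ifit1 from -0.19 (without the AT2 pair) to 0.96 when 1 pair was left out. In tumoroids against organoids that of Isg15 ran from -0.24 (without mixed BASC tumoroid 3) to 0.86 when 1 culture was left out, with -0.17 without the AT2 Ad-GFP organoid, and was -0.21 with AT2 cultures only. The score difference of the AT2 pair, 1.80, was 1.57 on log2(TPM + 1) and 2.12 as a median. The count of 0 in the AT2 against mixed BASC tumoroids held in all alternatives, including one chosen after seeing the data in which same-numbered tumoroids were summed (0 called). The matched pairs were blocked by population, and without that block 0 of the 48 genes were called as well, with a median of 0.07. The count of all genes called in club against basal cultures was 40 by edgeR, 219 by DESeq2 and 650 without a filter, and up to 460 when 1 culture was left out, with 0 of the 48 among them. In tumoroids against alveolar organoids 3493 genes were called, against 1434 without the AT2 Ad-Cre organoid and 5310 with same-numbered tumoroids summed.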
